A study of Mus musculus with 6 samples.

Results

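The genes described here make microRNAs and carry out microRNA silencing: Drosha and Dgcr8, Xpo5, Dicer1 and Tarbp2, the 4 Argonaute genes Ago1, Ago2, Ago3 and Ago4, and Tnrc6a. They were taken by name from the pathway and not by a measured value, though with earlier results of these data known. They are 10 of the 47643 genes in the count files. The study title concerns miR-9, the transcriptional repressor REST and the chromatin factor UHRF1 in axon regeneration, and the question behind these libraries is how transcription differs when Uhrf1 is knocked down in neurons that were not injured. The cells came from dorsal root ganglia of embryonic day 13 mice of the CD-1 strain. A lentivirus delivered either a control hairpin (shControl, 3 libraries) or one aimed at Uhrf1 (shUHRF1, 3 libraries), so both groups carry a virus and a hairpin. No label names separate cultures or litters, so the p-values cover only library-to-library spread, and that spread may be technical.

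In the canonical pathway a long primary transcript is cut in the nucleus by the Microprocessor, made of the RNase III enzyme Drosha and its RNA-binding partner Dgcr8. The hairpin is exported by exportin 5 (Xpo5) and cut again in the cytoplasm by Dicer1 with its double-stranded RNA-binding partner Tarbp2. One strand is loaded into an Argonaute protein, which pairs with target mRNAs through the seed, bases 2 to 8 of the microRNA, and recruits a TNRC6 (GW182) protein that brings in deadenylation and decapping enzymes. Ago2 is the mammalian Argonaute known for cutting targets that pair fully with its guide. Hairpins expressed from a virus use much of the same machinery, and each group carries one.

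Each library held 15599776 to 22382813 reads in genes. Genes with at least 1 read numbered 23310 to 24221 in shControl and 25288 to 26115 in shUHRF1. Uhrf1 itself had 8, 6 and 5 reads in shControl libraries 1, 2 and 3 and 2, 1 and 5 reads in shUHRF1, too few for it to enter the test, so its level cannot check the labels. Of 15573 genes tested, 3735 passed an edgeR adjusted p of 0.05 (24%), 1807 of them higher in shUHRF1 (11.6%) and 1928 lower (12.4%). With upper-quartile scaling the split was 2512 higher and 1378 lower, and with an offset for GC content and length it was 1538 and 2464. The 12 sensory neuron markers were tested in full, 1 fell and 11 did not pass, and their summed level was 25140 to 30300 CPM (counts scaled to library size) in shControl and 20090 to 26430 CPM in shUHRF1. In the same libraries 9 of 10 tested fibroblast markers rose (summed 9.814 to 12.63 CPM in shControl against 74.95 to 177.3 CPM), as did 3 of 6 tested macrophage markers (5.179 to 10.57 against 14.86 to 36.45 CPM). Of 9 tested glial markers 6 rose and 1 fell. The summed level of the 12 listed was 444.6 to 530.4 CPM in shControl and 170.2 to 478.7 CPM in shUHRF1, ranges that overlap. Their mean log2(CPM + 1) was 2.03 to 2.06 in shControl and 2.42 to 2.92 in shUHRF1. Of 5 tested endothelial and mural markers 2 rose, and their sums overlapped (40.36 to 44.43 against 37.68 to 53.52 CPM). No marker was at 0 in all 6 libraries, and sums are over all listed markers. In shControl 6 of 10 listed fibroblast and 7 of 10 macrophage markers had a mean below 1 CPM. The same held for 9 of 12 glial and 5 of 8 endothelial and mural markers. Such markers may have entered the test only through the shUHRF1 libraries, so counts of risers among tested markers are partly set by the filter. The part of these cell types in the results below was not tested. In bulk RNA fewer cells of a type and less RNA per cell cannot be told apart.

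With the hairpin against Uhrf1, Dicer1 and 3 Argonaute genes rose, Ago2 fell, and the Microprocessor and export genes did not pass the test. All 10 genes passed the expression filter, each with at least 102 reads in every library. Of the 10, 5 rose (Ago1, Ago3, Ago4, Dicer1 and Tnrc6a), 1 fell (Ago2) and 4 did not pass, against 11.6% higher and 12.4% lower over all tested genes. In 7 of the 10 the shControl and shUHRF1 libraries did not overlap, a pattern seen in 44% of all tested genes. The median log2 fold change of the 10 was 0.353, beside 0.017 over all tested genes, and 9 of the 10 values were above 0. Ago1, Ago2, Ago4 and Dicer1 passed in all 16 alternative analyses, and with any 1 library left out these were the 4 genes that passed.

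**Figure D1:**
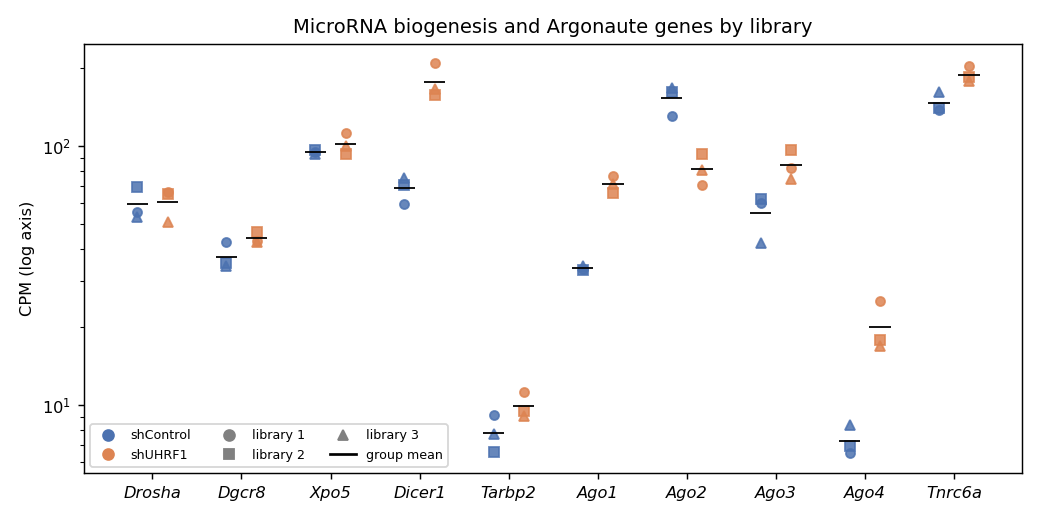
Level of each gene in CPM (log axis) in the 6 libraries, shControl in blue and shUHRF1 in orange, with the library number as the symbol and the mean of 3 libraries as a line. The 3 shUHRF1 points sit above all shControl points for Ago1, Ago3, Ago4, Dicer1, Dgcr8 and Tnrc6a and below them for Ago2.

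Per kilobase of exon, the scale on which genes can be set beside each other, Xpo5 was highest in shControl (13.82 CPM per kb), followed by Tnrc6a (11.51), Ago2 (10.91), Drosha (10.01), Dgcr8 (4.857), Ago1 (4.15), Dicer1 (4.091), Ago3 (3.321), Tarbp2 (1.72) and Ago4 (1.046). Tnrc6a, Ago2 and Drosha differed from their neighbour in that order by less than the larger of the SDs, as did Ago1 and Dicer1. In shUHRF1 the order was Tnrc6a (14.83 CPM per kb), Xpo5 (14.81), Dicer1 (10.56), Drosha (10.23), Ago1 (8.782), Ago2 (5.808), Dgcr8 (5.72), Ago3 (5.084), Ago4 (2.869) and Tarbp2 (2.178). Tnrc6a and Xpo5, Dicer1 and Drosha, Ago2 and Dgcr8, and Dgcr8 and Ago3 were each closer than the larger SD. Ago1 stood below Ago2 in shControl and above it in shUHRF1 on this scale only: undivided by length, the mean shUHRF1 levels were 71.31 CPM for Ago1 and 81.5 CPM for Ago2.

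Drosha, the nuclear RNase III, had 55.52, 69.66 and 53.04 CPM in the control libraries against 66.15, 65.01 and 51 with shUHRF1. Both groups covered the same range, with library 3 lowest in each. The log2 fold change was 0.032 ± 0.154 (SE, 95% interval -0.322 to 0.386, edgeR adjusted p = 0.9046), so a rise of up to 1.31-fold or a fall to 0.8 of the control level lies within the interval. Its sign turned in 7 of the 16 alternative analyses. Dgcr8, which binds the primary hairpin and positions Drosha, had 42.45, 35.35 and 34.34 CPM in the control libraries against 43.11, 46.34 and 42.62 with shUHRF1. The groups did not overlap, but by a narrow gap, and the log2 fold change of 0.236 ± 0.123 (SE, interval -0.048 to 0.52) did not pass (edgeR adjusted p = 0.2046). The log2 ratio of Drosha to Dgcr8 reads per kb was 1.039 ± 0.298 (SD, n = 3) in shControl and 0.830 ± 0.182 (SD, n = 3) in shUHRF1, a difference that an exact two-sided permutation test did not separate (p = 0.4, smallest possible 0.1).

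Dgcr8 shares 825 bases of exon with Trmt2a on the opposite strand and holds the miR-1306 hairpin in an exon. Whether the authors counted by strand is not given in the sources used here, so reads from the Trmt2a overlap cannot be assigned to one gene. Trmt2a, a tRNA methyltransferase gene, had a log2 fold change of -0.157 ± 0.12 (SE, edgeR adjusted p = 0.3831). Drosha is known to cut the hairpins within the Dgcr8 transcript, which makes the pair a textbook case of mutual control. The mature arms of the miR-1306 hairpin (chr16, minus strand, GRCm38.p6, from RefSeq), shown because they mark that hairpin, have their seeds in capitals.
miR-1306-5p: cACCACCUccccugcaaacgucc
miR-1306-3p: aCGUUGGCucugguggugaug

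Xpo5, the export receptor of pre-microRNA hairpins and of virus-made hairpins, had 95.01, 96.01 and 93.41 CPM in the control libraries against 111.6, 93.15 and 99.87 with shUHRF1. The control libraries lay close together, and shUHRF1 library 2 fell just below them. The log2 fold change was 0.099 ± 0.108 (SE, interval -0.149 to 0.348, edgeR adjusted p = 0.5484). Xpo5 carries its cargo together with the GTPase Ran, whose log2 fold change of -0.454 ± 0.141 (SE, edgeR adjusted p = 0.0506) did not pass the test. Ran passed as lower in 8 of the 16 alternative analyses. Among them were the replicate number as a block (edgeR adjusted p = 0.01577) and the GC and length offset (0.0382). With 1 library left out, Ran passed only without shControl library 2 (0.0411) or shUHRF1 library 1 (0.0428).

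Dicer1, the cytoplasmic RNase III that releases the microRNA duplex, rose 2.58-fold (95% interval 2.04 to 3.27). Its reads were 1029, 1091 and 1572 in shControl and 4629, 2667 and 3421 in shUHRF1. As CPM these were 59.76, 70.63 and 75.19 against 207.9, 157 and 165.7. The lowest shUHRF1 library stood far above the highest shControl library. The log2 fold change was 1.368 ± 0.148 (SE, edgeR adjusted p = 0.001256), larger than that of 94.2% of tested genes. Tarbp2, the Dicer partner that helps pass the duplex to Argonaute, had 9.175, 6.603 and 7.701 CPM in the control libraries against 11.18, 9.48 and 9.057 with shUHRF1. One control library overlapped the shUHRF1 range, and the log2 fold change of 0.34 ± 0.19 (SE, interval -0.098 to 0.777, edgeR adjusted p = 0.2344) did not pass.

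Ago1 had 33.39, 33.27 and 34.44 CPM in the control libraries against 76.61, 65.83 and 71.49 with shUHRF1. The controls were almost equal and every shUHRF1 library was well above them. The rise was 2.12-fold (95% interval 1.78 to 2.51), a log2 fold change of 1.081 ± 0.108 (SE, edgeR adjusted p = 0.0009399). Ago4, the least abundant Argonaute, had 112, 107 and 175 reads in shControl and 560, 302 and 348 in shUHRF1. On the CPM scale these were 6.504, 6.927 and 8.37 against 25.15, 17.78 and 16.86, with no overlap and the widest spread among the shUHRF1 libraries. Ago4 had the largest fold change of the 10 genes, 2.74-fold (95% interval 1.97 to 3.81), or 1.453 ± 0.206 (log2, SE, edgeR adjusted p = 0.003061).

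Ago3 had 60.28, 62.6 and 42.23 CPM in the control libraries against 81.91, 96.27 and 74.54 with shUHRF1. Control library 3 was well below the other two, and no control reached the shUHRF1 range. The log2 fold change was 0.615 ± 0.175 (SE, 95% interval 0.212 to 1.017, edgeR adjusted p = 0.03763). This call was lost whichever of the 6 libraries was left out (adjusted p = 0.0507 to 0.107, lowest fold change 0.446 without shControl library 3), and with a GC and length offset (log2 fold change 0.386, adjusted p = 0.0969).

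Ago2, the Argonaute that can cut its target, moved the other way. It had 2240, 2492 and 3510 reads in shControl and 1577, 1584 and 1660 in shUHRF1. As CPM these were 130.1, 161.3 and 167.9 against 70.82, 93.27 and 80.4, so the highest shUHRF1 library stayed below the lowest control. The level fell 1.88-fold, a log2 fold change of -0.91 ± 0.148 (SE, 95% interval -1.251 to -0.569, edgeR adjusted p = 0.005019). Ago2 lies on chr15:73095844-73184935, minus strand (GRCm38), and shares 219 bases of exon with Chrac1 on the opposite strand. Chrac1, a histone-fold subunit of a chromatin remodelling complex, had only 7.607 to 9.662 CPM in any library and a log2 fold change of 0.005 ± 0.17 (SE, edgeR adjusted p = 0.9883).

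**Figure D2:**
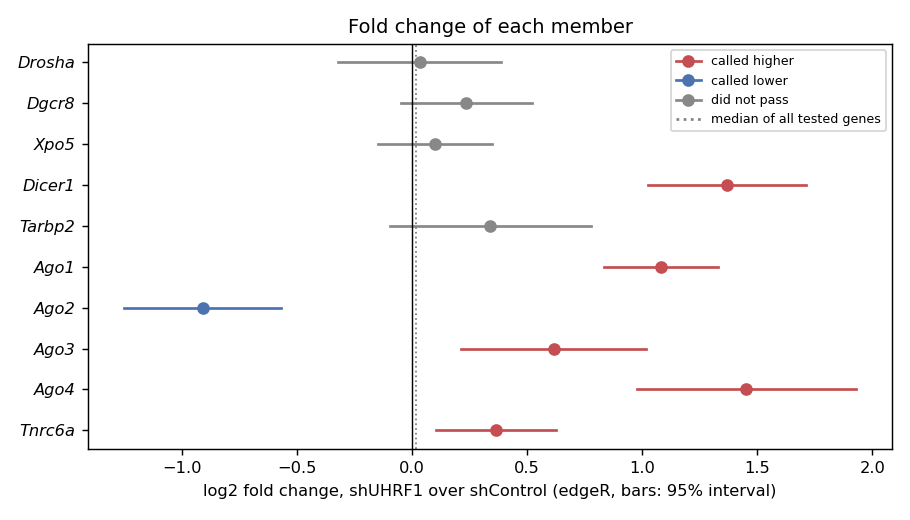
Log2 fold change of each gene in shUHRF1 over shControl (x axis) from edgeR with its 95% interval, coloured by whether it passed the test, and the median of all 15573 tested genes as a dotted line. Ago4, Dicer1 and Ago1 lie above 1 and Ago2 at -0.91, while the intervals of Drosha, Dgcr8, Xpo5 and Tarbp2 include 0.

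Because 3 Argonaute genes rose and Ago2 fell, the make-up of the Argonaute mRNA pool differed between the groups. Ago2 made up 51.63%, 56.44% and 59.95% of Argonaute reads per kb of exon in shControl, and 21.9%, 28.75% and 26.7% in shUHRF1. The mean share went from 56.01 ± 4.18% to 25.78 ± 3.51% (SD, n = 3 each), a difference of -30.22 percentage points (exact two-sided permutation test, p = 0.1, the smallest that 3 against 3 can give). Ago1 went from 21.42 ± 1.40% to 39.01 ± 3.42% (SD, n = 3) and Ago4 from 5.38 ± 0.59% to 12.69 ± 2.61%, with no overlap between groups. Ago3 went from 17.19 ± 3.92% to 22.51 ± 2.28% (SD, n = 3), a difference of 5.321 points that was 3.111 without shControl library 3 and 10.6 when reads were divided by coding length. In every control library Ago2 was the largest share, and in every shUHRF1 library Ago1 was, on this scale. Undivided by length, and also per kb of coding sequence, Ago2 was again the largest in every control library, but the largest share in shUHRF1 was Ago3 in libraries 1 and 2 (32.19% and 35.24% undivided) and Ago2 in library 3 (33.05%). The 4 shares sum to 100%, so they are not independent of each other. Undivided by length, the summed Argonaute level was 249.1 ± 17.3 CPM in shControl and 257 ± 15.1 CPM in shUHRF1 (exact permutation p = 0.6, n = 3 each). Per kb of exon the sums were 17.96, 20.37 and 19.96 against 23.04, 23.12 and 21.46 CPM per kb (exact permutation p = 0.1, the smallest possible), since Ago1 and Ago4 have shorter exons than Ago2.

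**Figure D3:**
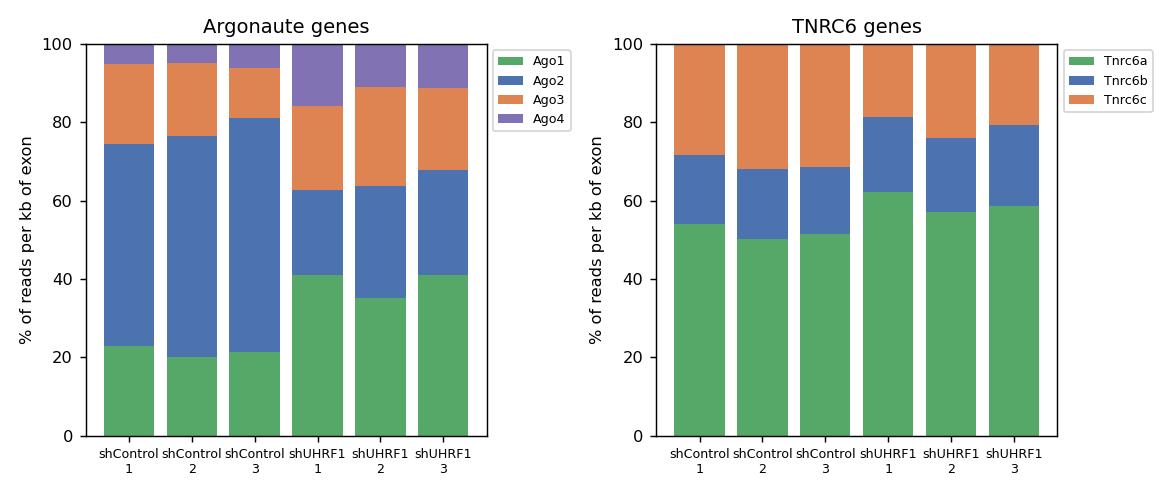
Share of each Argonaute gene (left) and each TNRC6 gene (right) in the reads per kb of exon of its family, as % (y axis), for each of the 6 libraries (x axis). Ago2 takes 51.63 to 59.95% in shControl and 21.9 to 28.75% in shUHRF1, and Tnrc6a 50.31 to 53.97% and 57.11 to 62.22%.

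Ago3, Ago1 and Ago4 lie next to each other on the minus strand of chromosome 4, at chr4:126331704-126429556, chr4:126435012-126468583 and chr4:126489541-126533472 (GRCm38), while Ago2 is alone on chromosome 15. Neighbouring genes within 250 kb were therefore read too, a choice made by position after the values of the 3 were seen. There are 17 protein-coding neighbours, and 14 were tested. Of these 14, 3 were called, a share close to the 24% of all tested genes. Among them AU040320, at 220072 bases from Ago4, rose by 0.508 ± 0.144 (log2, SE, edgeR adjusted p = 0.03734), and Oscp1 was also called higher with 0.455. With 1 library left out AU040320 passed only without shUHRF1 library 2 (adjusted p up to 0.117) and Oscp1 only without shUHRF1 library 1 (adjusted p up to 0.119). Ncdn, the neurochondrin gene, fell by 1.183 on the log2 scale (edgeR adjusted p = 0.007493). The other 11 tested neighbours did not pass, among them Tekt2, Adprhl2 and Psmb2, which lie between the 3 called genes and the cluster.

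UHRF1 is known for binding hemimethylated CpG sites and bringing the methyltransferase DNMT1 to them, so the CpG content of the promoters is shown. No methylation was measured in these files. RefSeq promoter entries (GRCm38.p6) matched 9 of the 10 genes by symbol, all but Ago2, the only gene that fell. In the 250 bases before the start, CpG counts were 46 for Ago4, 39 for Dicer1, 36 for Dgcr8, 33 for Drosha, 33 for Xpo5, 27 for Ago3, 26 for the first listed start of Ago1, 18 for Tarbp2 and 9 for Tnrc6a. Over 32851 RefSeq promoters the median was 6 and the upper quartile 16. Of the 9, 8 were above the upper quartile, genes called higher and genes that did not pass alike. The exception was Tnrc6a, which was also called higher, and its sequence is not printed. The sequences of Ago1 (chr4:126468632-126468881), Ago3 (chr4:126429543-126429792), Ago4 (chr4:126533459-126533708) and Dicer1 (chr12:104751953-104752202), all on the minus strand, are given 5′ to 3′ with each CpG in capitals.
Ago1: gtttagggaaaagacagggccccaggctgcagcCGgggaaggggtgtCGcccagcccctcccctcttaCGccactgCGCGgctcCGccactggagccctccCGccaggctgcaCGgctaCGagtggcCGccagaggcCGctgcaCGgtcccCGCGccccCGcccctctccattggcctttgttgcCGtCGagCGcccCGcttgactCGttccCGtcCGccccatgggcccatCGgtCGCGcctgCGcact
Ago3: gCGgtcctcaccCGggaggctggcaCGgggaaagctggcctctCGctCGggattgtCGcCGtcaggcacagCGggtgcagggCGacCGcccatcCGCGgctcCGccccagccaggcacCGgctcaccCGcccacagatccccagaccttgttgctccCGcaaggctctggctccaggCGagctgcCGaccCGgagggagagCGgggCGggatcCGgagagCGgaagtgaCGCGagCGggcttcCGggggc
Ago4: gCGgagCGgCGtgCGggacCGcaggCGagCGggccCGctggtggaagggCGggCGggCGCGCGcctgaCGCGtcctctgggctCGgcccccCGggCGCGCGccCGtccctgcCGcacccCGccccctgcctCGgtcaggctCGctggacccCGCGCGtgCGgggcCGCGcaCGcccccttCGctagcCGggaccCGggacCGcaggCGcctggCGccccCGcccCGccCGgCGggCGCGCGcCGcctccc
Dicer1: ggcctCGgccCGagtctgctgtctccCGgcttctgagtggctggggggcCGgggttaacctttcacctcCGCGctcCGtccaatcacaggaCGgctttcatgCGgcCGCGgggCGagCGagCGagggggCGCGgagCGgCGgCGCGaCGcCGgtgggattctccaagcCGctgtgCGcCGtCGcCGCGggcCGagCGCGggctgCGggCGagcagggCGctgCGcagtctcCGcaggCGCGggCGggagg
The GC box GGGCGG, searched on both strands, occurred 2 times in Ago1, 4 times in Ago3, 5 times in Ago4 and 1 time in Dicer1, and 32.7% of all promoters of this length hold it. CCAAT on either strand occurred 1 time in Ago1 and 1 time in Dicer1, and in 33.8% of all promoters. CAGCACC and GGACAG, the first and last parts of the long RE1 element that REST binds, each searched alone on both strands, occurred in none of the 4 sequences, and in 5.7% and 18.7% of all promoters. Over all 9 matched promoters, GGGCGG was found in 7 (not in Drosha or Tnrc6a), CCAAT in 5 (Ago1, Dicer1, Drosha, Dgcr8 and Tarbp2), CAGCACC in Drosha and Xpo5, and GGACAG in none. A match is a run of letters and not a measured site, and no match says only that these letters are not in this window.

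Tnrc6a, which links Argonaute to the deadenylation machinery, had 138, 139.7 and 160.9 CPM in the control libraries against 202.7, 184.7 and 177.9 with shUHRF1. The groups did not overlap. The log2 fold change was 0.366 ± 0.113 (SE, 95% interval 0.105 to 0.627, edgeR adjusted p = 0.04987), at the edge of the threshold. The call was lost with the replicate number as a block (adjusted p = 0.0554), with any 1 of the 6 libraries left out (adjusted p = 0.0769 to 0.193), without the low-count filter (0.136) and with a GC and length offset (log2 fold change 0.204, adjusted p = 0.238). Its paralog Tnrc6b rose by 0.345 ± 0.104 (log2, SE, edgeR adjusted p = 0.04555), and Tnrc6c had -0.368 ± 0.152 (SE, edgeR adjusted p = 0.1172). The Tnrc6b call was lost with any 1 library left out (adjusted p = 0.0692 to 0.2002), without the low-count filter (0.1668) and with the GC and length offset (log2 fold change 0.097, adjusted p = 0.5834). Tnrc6c passed as lower without shUHRF1 library 2 (adjusted p = 0.0484) and with that offset (0.0328). Tnrc6c made up 30.61 ± 1.95% of TNRC6 reads per kb in shControl and 21.10 ± 2.69% in shUHRF1 (SD, n = 3, exact permutation p = 0.1, the smallest possible), and Tnrc6a 51.97 ± 1.86% and 59.28 ± 2.64%.

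Library 1 of shUHRF1 was the highest of all 6 libraries for 6 of the 10 genes, Ago1, Ago4, Dicer1, Tnrc6a, Xpo5 and Tarbp2, and the lowest for Ago2. Its mean log2 level of fibroblast markers was 2.23, the lowest of the 3 shUHRF1 libraries (2.91 and 3.3 in libraries 2 and 3), against 0.85 to 1.02 in shControl. Glial markers gave 2.42 in that library against 2.69 and 2.92, and sensory neuron markers 9.93, the lowest of all 6 libraries (10.1 to 10.4 in the others). Library 1 also had the highest share of mitochondrial reads, 2.919%, where the other 5 had 1.118 to 2.04%. By the Pearson correlation of log2(CPM + 1) over the 6 libraries, the genes most like Ago4 were Chn2 (0.9972), Usp32 (0.9958) and Zfp213 (0.9951) of 10288 genes compared, 61 of which exceeded 0.98. The 6 points form 2 groups, so this measure mostly reads the difference between groups. Chn2, a Rac GTPase-activating protein gene, rose from 6.80 ± 0.99 to 30.6 ± 9.69 CPM (SD, n = 3, edgeR adjusted p = 0.001424).

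The other genes of the pathway were read from 4 lists and 1 list of host transcripts. Of 19 cofactors of primary transcript processing, all tested, 1 rose and 1 fell. This was 10.5% called, beside 24% of all tested genes, with a median log2 fold change of 0.066. Adarb1, an RNA-editing adenosine deaminase, had 35.31, 36.64 and 34.44 CPM in the control libraries against 18.46, 21.02 and 19.28 with shUHRF1, and fell by 0.857 ± 0.117 (log2, SE, edgeR adjusted p = 0.002576). The RNA helicase Ddx5, a Microprocessor cofactor, had 342.2, 346.3 and 332.8 CPM against 486.8, 474.5 and 463.9, and rose by 0.481 ± 0.098 (log2, SE, edgeR adjusted p = 0.01144). Its call was lost without shControl library 1 (adjusted p = 0.0602) or 3 (0.0609). Dhx9 (0.361) and Mettl3 (0.214) did not pass.

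Of 15 genes of pre-microRNA handling and small RNA turnover, 14 were tested, 4 rose and 2 fell. This was 42.9% called, beside 24% of all tested genes, with a median of 0.283. Tut4, a terminal uridylyltransferase that tails pre-let-7, had 16.32, 19.1 and 19.71 CPM in the control libraries against 33.72, 29.79 and 30.32 with shUHRF1, a log2 rise of 0.767 ± 0.132 (SE, edgeR adjusted p = 0.006229). Tsn, which encodes the translin subunit of the nuclease C3PO, fell by 0.833 ± 0.12 (log2, SE, edgeR adjusted p = 0.003287), from 68.47, 75.48 and 80.11 CPM to 43.65, 37.45 and 44.66 CPM. The Dicer cofactor gene Prkra rose by 0.566 ± 0.135 (log2, SE, edgeR adjusted p = 0.02022), a call lost without shControl library 1 (adjusted p = 0.0843), shControl library 3 (0.0641) or shUHRF1 library 3 (0.0763). Dis3l2, the exonuclease that degrades tailed pre-let-7, rose by 0.408 ± 0.107 (log2, SE, edgeR adjusted p = 0.02909), and its call was lost without shControl library 1 or 3 or shUHRF1 library 2 or 3 (adjusted p = 0.0737 to 0.139). Tent2 was the other gene that rose, and Zswim8, a ubiquitin ligase subunit gene of target-directed microRNA decay, the other that fell. These 2 lie outside the rule for named genes and are given to complete the count. With 1 library left out Tent2 passed only without shUHRF1 library 2 (adjusted p up to 0.114), and Zswim8 only without library 2 of either group (adjusted p up to 0.139).

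Of 18 partners of RISC, the Argonaute complex, in loading and silencing, 17 were tested, 3 rose and 3 fell. This was 35.3% called, beside 24% of all tested genes, with a median of -0.14. The chaperone gene Hsp90aa1, whose product helps open Argonaute for loading, had 294.5, 304.9 and 301.2 CPM in the control libraries against 92.01, 143.1 and 121.7 with shUHRF1, or a log2 fold change of -1.336 ± 0.163 (SE, edgeR adjusted p = 0.001769). Its paralog Hsp90ab1 stood at 1317 to 1920 CPM in all 6 libraries, with a log2 fold change of 0.011 ± 0.163 (SE, edgeR adjusted p = 0.97). Pabpc1, the cytoplasmic poly(A)-binding protein, fell by 0.635 ± 0.128 (log2, SE, edgeR adjusted p = 0.01117). Hsp90aa1 and Pabpc1 are known to have near-identical copies elsewhere in the genome. Reads that aligned equally well to a copy were not counted, so the levels of both genes are uncertain. Copies were not searched for here, and other genes given, Ran and Ptges3 among them, may lose reads in the same way. Limd1, a LIM-domain scaffold of Argonaute complexes, had 2.613, 4.208 and 2.296 CPM against 8.083, 8.832 and 10.17 and rose by 1.578 ± 0.266 (log2, SE, edgeR adjusted p = 0.005812). The RNA helicase gene Mov10 rose by 0.997 ± 0.213 (log2, SE, edgeR adjusted p = 0.01372), a call lost without shControl library 1 (adjusted p = 0.0607). Tnrc6b completes the rises and Ptges3, the p23 cochaperone gene, the falls, and both calls were lost whichever library was left out (adjusted p = 0.0566 to 0.148 for Ptges3).

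Of 23 deadenylation and decapping genes, all tested, 4 rose and 19 did not pass. This was 17.4% called, beside 24% of all tested genes, with a median of 0.176. With the replicate block 4 rose and 1 fell, with the GC and length offset 1 rose and 1 fell, and with both 4 rose and 3 fell. Cnot6l, a CCR4-type deadenylase, had 14.52, 16.05 and 13.82 CPM in the control libraries against 24.2, 31.38 and 28.24 with shUHRF1, a log2 rise of 0.917 ± 0.147 (SE, edgeR adjusted p = 0.004793). It passed with any 1 library left out. The decapping activator gene Patl1 (0.706 ± 0.198), the CCR4-NOT subunit gene Cnot10 (0.51 ± 0.143) and the decapping cofactor gene Dcp1b (0.546 ± 0.163, all log2 and SE) rose with edgeR adjusted p = 0.03606, 0.03646 and 0.04406. Patl1 kept its call only without shUHRF1 library 2, Cnot10 only without shUHRF1 library 2 or 3, and Dcp1b lost it whichever library was left out (adjusted p up to 0.135, 0.122 and 0.166). Ddx6, the helicase that links TNRC6-bound mRNA to decapping, had 105.9 to 137.5 CPM in shControl and 127.9 to 137.3 CPM in shUHRF1.

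**Figure D4:**
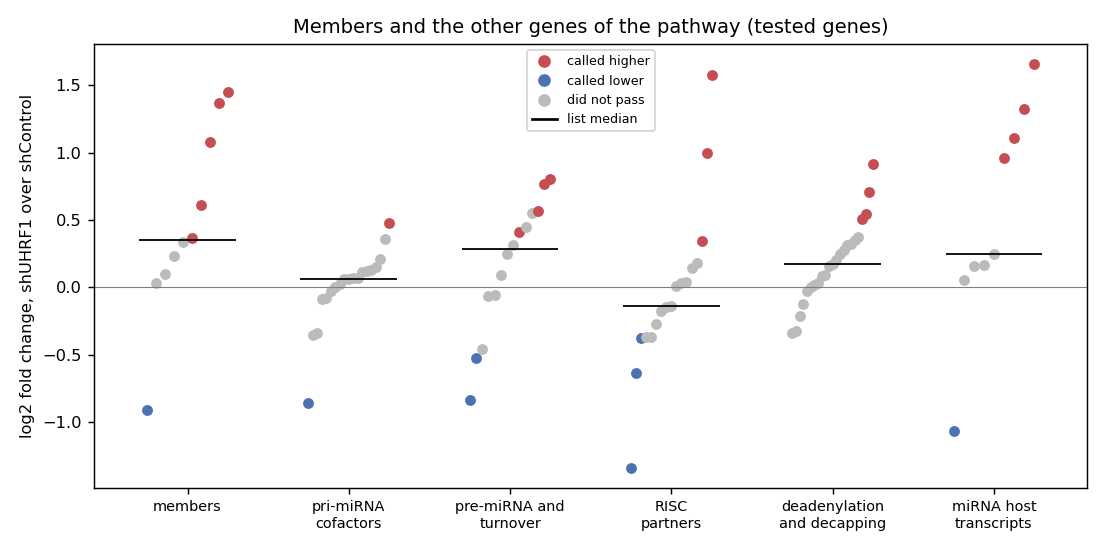
Log2 fold change in shUHRF1 over shControl (y axis) of each tested gene among the 10 genes described here and in the 5 other lists (x axis), coloured by call, with the list median as a line. Medians run from -0.14 for the RISC partners to 0.353 for the 10 genes, beside 0.017 over all tested genes.

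Host transcripts, the long RNAs from which microRNAs are cut, were read because this library type does not measure microRNAs in their mature form. Whether a host level follows that of its microRNA was not tested. Of 17 hosts listed, 16 were matched and 9 were tested, of which 4 rose and 1 fell. This was 55.6% called, beside 24% of all tested genes, with a median of 0.252. Mir124a-1hg, host of the neuronal miR-124, had 64.4, 56.65 and 59.26 CPM in the control libraries against 139.6, 115.2 and 96.63 with shUHRF1, a log2 rise of 0.962 ± 0.15 (SE, edgeR adjusted p = 0.00426). A further host of this family, Mir124-2hg, rose by 1.11 ± 0.281 (log2, SE, edgeR adjusted p = 0.02531), but passed only without shUHRF1 library 2 among the 6 fits with a library left out (adjusted p up to 0.0942). Mir22hg had 24.56, 18.19 and 17.17 CPM against 10.82, 8.656 and 9.106 and fell by 1.066 ± 0.188 (log2, SE, edgeR adjusted p = 0.006847). Mir17hg, with 0.7549, 1.877 and 1.196 CPM against 4.625, 3.18 and 4.214, rose by 1.657 ± 0.361 (log2, SE, edgeR adjusted p = 0.0146), a call lost without library 3 of either group (adjusted p = 0.0637 for shControl and 0.0543 for shUHRF1). Mir99ahg rose by 1.321 ± 0.314 (log2, SE, edgeR adjusted p = 0.0203), lost without shControl library 1 (adjusted p = 0.0794), shControl library 3 (0.0773) or shUHRF1 library 3 (0.0588). The listed hosts of miR-9, the microRNA of the study title, were too low to test. Mir9-3hg had 1, 3 and 3 reads in shControl and 1, 0 and 3 in shUHRF1. The other listed host, C130071C03Rik, had 1, 7 and 4 reads against 8, 13 and 14. Any further miR-9 host was not on the list.

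Chosen mature microRNAs of these hosts are shown (RefSeq, GRCm38.p6, 5′ to 3′, seed in capitals), those whose seeds were searched in the 10 genes. Mir17hg holds 11 mature microRNAs and Mir99ahg 6, and their other seeds were not searched, nor was that of miR-124.
miR-9-5p: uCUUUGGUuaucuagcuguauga
miR-17-5p: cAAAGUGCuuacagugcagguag
miR-20a-5p: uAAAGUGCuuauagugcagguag
miR-22-3p: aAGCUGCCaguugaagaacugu
let-7c-5p: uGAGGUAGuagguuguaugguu
miR-99a-5p: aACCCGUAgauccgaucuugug
miR-17-5p and miR-20a-5p, both cut from Mir17hg, share a seed, and miR-99a-5p and let-7c-5p come from Mir99ahg with different seeds. In the 3′UTR of 1 transcript a gene, the 7 bases that pair with the miR-9 seed (ACCAAAG) occurred 1 time in Dicer1 and 1 time in Tnrc6a and in none of the other 8 genes, and 11.2% of 20072 genes have a match. The let-7 match (CTACCTC) occurred 3 times in Ago2, whose 3′UTR is 11064 bases long, 1 time in Ago3 (12742 bases) and 1 time in Tarbp2 (334 bases), and in 8.2% of genes. A longer 3′UTR holds more matches by length alone. The sites, with the seed match in capitals, lie at chr12:104690604-104690633 (Dicer1, minus strand), chr7:123195104-123195133 (Tnrc6a, plus strand) and, for let-7 in Ago2, chr15:73101716-73101745, chr15:73100032-73100061 and chr15:73097974-73098003 (minus strand, GRCm38).
Dicer1, miR-9 match: gtgttgccagagtcACCAAAGctgtgctct
Tnrc6a, miR-9 match: tggtttttccaaaaACCAAAGgtagctttg
Ago2, let-7 match 1: cagatgcataaaagCTACCTCtgacttctc
Ago2, let-7 match 2: aggtggcctctgtcCTACCTCcaggcactg
Ago2, let-7 match 3: tttacaatgtggatCTACCTCagttaaaca
The miR-17 match (GCACTTT) occurred 3 times in Ago3 and 1 time each in Ago1, Ago2 and Tnrc6a, and in 11.2% of genes. The miR-22 match (GGCAGCT) occurred 1 time each in Ago1, Ago4, Dicer1 and Tnrc6a, and in 11.9% of genes. The miR-99a match (TACGGGT) occurred 1 time, in Ago2, at chr15:73106125-73106154, and 1.0% of genes have one. Mature microRNA levels were not measured, and these matches are descriptions of letters.

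**Figure D5:**
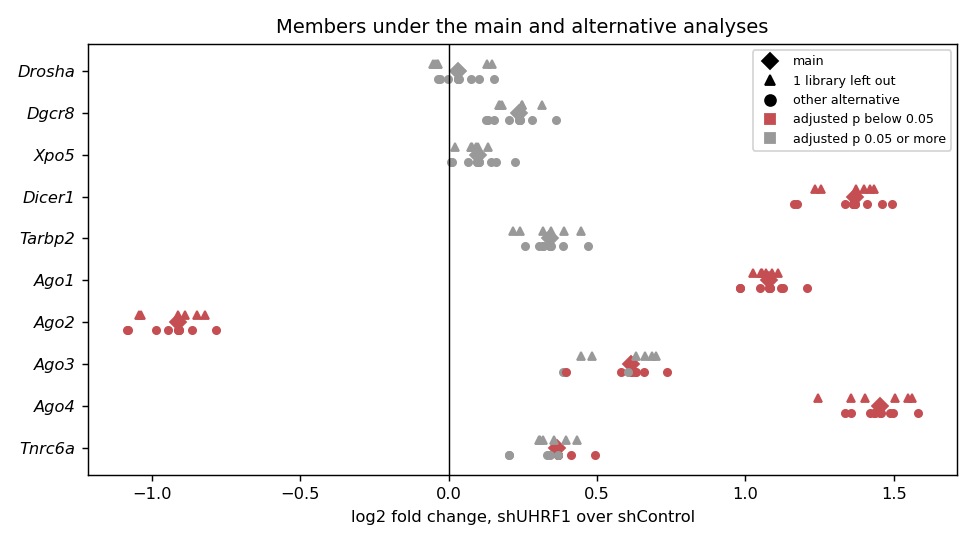
Log2 fold change of each gene (x axis) in the main analysis (diamond), with 1 library left out (triangles) and in the other alternatives (circles), in red where the adjusted p was below 0.05. Ago1, Ago2, Ago4 and Dicer1 are red throughout, Ago3 and Tnrc6a turn grey with any library left out, and Drosha lies on both sides of 0.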

How the data were processed

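RNA from 6 libraries (3 shControl, 3 shUHRF1) was purified on PureLink columns with DNase, depleted of ribosomal RNA and made into cDNA with a SMARTer kit, per the labels' protocols. The deposited values are raw counts of reads per gene, 1 file a library. The submitters' processing notes name FastQC, STAR, HTSeq, DESeq2 and the build mm10, without role or version. The 5 summary rows were left out: 8.43 to 17.18% of a library's reads were in no feature, 2.12 to 2.265% were ambiguous and 30.5 to 37.28% did not align uniquely, so shared reads of paralogs were not counted. Of 47643 identifiers, 47224 matched GENCODE M21 on GRCm38, and the other 419 held at most 0.037% of reads.

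Counts were filtered with filterByExpr, scaled by TMM and tested with edgeR 4.0.16's quasi-likelihood test in R 4.3.3, with no covariates, and p-values were adjusted by Benjamini-Hochberg over 15573 genes at a threshold of 0.05. The procedure was tested on simulated data. CPM use TMM-scaled library sizes, and levels per kb divide by the union of exons. Shares and ratios were compared by exact two-sided permutation tests over libraries, which with 3 against 3 cannot go below 0.1, so no share can pass 0.05. Alternatives were DESeq2 1.42.0, limma-voom (limma 3.58.1), RLE and upper-quartile factors, no filter, at least 2 CPM in 3 libraries, a block for replicate number, a GC and length offset, both together, library pairs 1 and 3 only, and each library left out.

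Replicate numbers in the titles were checked for pairing. Same-numbered libraries deviated together from their group means (r = 0.319, 0.4 and 0.388), and differently numbered ones did not (r = -0.284 to 0.001). Deviations from a group mean cancel within the group, so the second set of values is not separate from the first. No label says what a number shares, so pairing was not settled, and the main test used no block. No 2 libraries of a group agreed within sampling noise.

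The 10 genes and the lists were chosen with earlier results of these data known. Named are all 10, up to 4 genes a list and 5 host transcripts by smallest unadjusted p, and any listed miR-9 host. Also named are the 3 genes most correlated with the gene of largest fold change, and Uhrf1. Any other gene was named after its values were seen, and its alternatives were added then. Seed matches were searched in the 3′UTR of 1 GENCODE M21 transcript a gene.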

Additional observations from a re-analysis of the deposited data

How the results depend on the processing

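Directions of the 10 genes held in all 16 alternatives except for Drosha, whose log2 fold change was -0.002 without the low-count filter, -0.037 with a GC and length offset, -0.03 with the replicate block and that offset, and -0.052 to 0.145 with 1 library left out (-0.038 without shControl replicate 1, -0.052 without shControl 3, -0.037 without shUHRF1 1 and -0.046 without shUHRF1 2). Among the other genes given, Chrac1 and Hsp90ab1 (0.005 and 0.011 in the report) also turned sign: without the filter -0.029 and -0.022, with the offset -0.095 and -0.074, with the block and the offset -0.089 and -0.062, in pairs 1 and 3 -0.024 and -0.059, and with 1 library left out -0.109 to 0.075 and -0.142 to 0.127. Between 4 and 6 of the 10 passed in every alternative. Leaving out 1 library gave 1768 to 3888 genes called in all (2018 without shControl replicate 1, 1768 without shControl replicate 3, 2171 without shUHRF1 replicate 3), 1 to 2 cofactors of primary transcript processing, 2 to 6 turnover genes, 3 to 5 RISC partners, 1 to 3 deadenylation and decapping genes and 2 to 5 host transcripts. Deadenylation and decapping genes called numbered 2 (1 falling) with the GC and length offset, 7 (3 falling) with the replicate block and the offset, and 1 in library pairs 1 and 3 only, where RISC partners numbered 3. Fewer libraries enter the fits with one left out, and for the other shifts the cause was not tested. The replicate block gave 4820 calls in all, ended the Tnrc6a call, added Ran and changed no other call of a gene given with a test; the paired exact sign-flip test of the Ago2 share gave p = 0.25, its smallest. The Ago1 share differed by 14.14 points per kb of coding sequence, and the Ago3 share by 10.6 points on that scale and 10.5 without division by length, beside 5.321 per kb of exon. The median over all genes, 0.017 on the log2 scale, became 0.142 with upper-quartile scaling and 0.11 without the filter. Tarbp2 and Ago4 had the fewest reads of the 10, and their intervals were the widest.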
